A study of Mus musculus with 13 samples.

Results

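The Notch pathway genes described here are 10 genes measured in C2C12, a line of mouse myoblasts that divide in serum-rich medium and fuse to myotubes once serum is withdrawn. They were taken by name as the rows Notch1, Notch2, Notch3, Jag1, Jag2, Dll1, Hes1, Hes6, Hey1 and Heyl, 10 of 23236 rows in a gene-level Cuffdiff table. The libraries compared are labelled siLinc-Yy1 and siNC, which by the usual reading are siRNAs against the long noncoding RNA Linc-Yy1 and a control sequence. Both are poly(A)-selected RNA from C2C12 cells labelled myoblasts, and no other genotype or agent is named for them. Each condition has 1 library, so no replicate error exists, no test of conditions was possible, and every difference describes this pair of libraries. The series also holds 11 samples that were not analysed here, RNA-seq libraries labelled GM and DM and ChIP-seq libraries.

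Notch is a receptor that is cut when a ligand on a neighbouring cell pulls on it. The freed intracellular part enters the nucleus and joins the DNA-binding protein Rbpj and a Mastermind coactivator. Together they switch on certain genes of the Hes and Hey families, such as Hes1, Hey1 and Heyl. These encode basic helix-loop-helix repressors, and in muscle the pathway is known for holding satellite cells and myoblasts back from differentiation.

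In the siLinc-Yy1 library the receptors stood close to their siNC levels, while the ligand Dll1 and the Hes/Hey genes Heyl, Hey1 and Hes6 were lower by 20.6 to 38.5%. No member changed 2-fold, and none was called in the authors' deposited table. Dll1, Hes6, Hey1 and Heyl were lower by more than counting error over 1 kb of transcript, as were 19.2% of all rows with a mean of at least 1 FPKM. Each lay towards the low end of the central 95% of genes nearest to it in level. Of those neighbours 3.32% (Hes6) to 9.63% (Dll1) were lower still. Of 62 other pathway genes with status OK in the authors' deposited table, 2 were called there, beside 1.62% of all such rows. These were the noncanonical ligands Dlk1 and Dner, both higher in siLinc-Yy1 from low levels in siNC (0.658 FPKM and 0.0513 FPKM). Their relative Dlk2 was not called and was lower, at 0.674 FPKM in siLinc-Yy1 and 0.788 FPKM in siNC.

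Upstream sequences are shown for Hes6 and Dll1, the pair among those 4 lower genes that the RefSeq promoter table holds. The table (GRCm38.p6, whereas the expression table is on mm9) covers 250 bases before to 50 bases after each start. It matched 7 of the 10 genes, in 9 windows. Hes1, Hey1 and Heyl had no window in it. The Hes6 windows are chr1:91413989-91414288 (outer) and chr1:91413173-91413472 (inner), and the Dll1 windows are chr17:15376883-15377182 (outer) and chr17:15375774-15376073 (inner), all on the minus strand. Capitals mark the E boxes CAGCTG (the first) and CACCTG (the second, read as CAGGTG on the other strand), which basic helix-loop-helix factors such as Myod1 can bind.
Hes6, start at the outer position: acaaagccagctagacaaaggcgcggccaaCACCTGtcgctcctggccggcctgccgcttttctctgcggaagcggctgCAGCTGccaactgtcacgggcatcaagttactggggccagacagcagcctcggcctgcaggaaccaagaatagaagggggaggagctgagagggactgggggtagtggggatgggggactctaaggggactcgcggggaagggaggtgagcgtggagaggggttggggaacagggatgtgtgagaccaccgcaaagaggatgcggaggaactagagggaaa
Hes6, start at the inner position: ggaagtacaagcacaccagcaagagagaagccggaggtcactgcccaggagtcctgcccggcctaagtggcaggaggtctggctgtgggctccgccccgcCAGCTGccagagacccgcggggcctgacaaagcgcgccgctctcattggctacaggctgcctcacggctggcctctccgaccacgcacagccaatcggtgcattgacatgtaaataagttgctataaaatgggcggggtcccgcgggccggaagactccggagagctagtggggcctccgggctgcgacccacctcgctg
Dll1, start at the outer position: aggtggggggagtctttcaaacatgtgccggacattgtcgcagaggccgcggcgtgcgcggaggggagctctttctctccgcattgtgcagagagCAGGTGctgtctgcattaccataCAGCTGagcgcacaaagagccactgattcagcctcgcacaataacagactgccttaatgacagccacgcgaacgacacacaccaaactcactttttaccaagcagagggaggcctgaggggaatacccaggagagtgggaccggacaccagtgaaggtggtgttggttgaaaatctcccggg
Dll1, start at the inner position: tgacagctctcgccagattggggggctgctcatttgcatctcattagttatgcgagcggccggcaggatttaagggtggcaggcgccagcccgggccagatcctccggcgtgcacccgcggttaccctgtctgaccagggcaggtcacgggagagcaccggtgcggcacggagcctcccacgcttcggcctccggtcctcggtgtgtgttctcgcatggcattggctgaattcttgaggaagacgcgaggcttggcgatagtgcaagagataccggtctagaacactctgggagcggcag
Both Hes6 windows and the outer Dll1 window hold CAGCTG. Across the 9 windows of these genes the first E box is in 4, that of Jag1 included, and the second in 2. Of all 32851 windows in the table, 16.3% hold the first E box and 20.2% the second. TGGGAA, the core of Rbpj sites, is in 25.6% of all windows and in 0 of these 9, searched on both strands like the E boxes. No window of the Notch targets Hes1, Hey1 and Heyl could be searched. The marked E boxes do not overlap each other. A match of letters is a description of the window and no evidence of binding.

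The depth was read from low rows of single-exon receptor genes, where FPKM (the fragments of a gene divided by its transcript length in kilobases and by the mapped fragments in M) steps by 1 fragment. If the authors applied no further scaling between the libraries, the steps give about 47.6 M fragments for siLinc-Yy1 and 66.1 M for siNC. A level of 1 FPKM then stands for 47.6 fragments per kilobase of transcript in siLinc-Yy1 and 66.1 in siNC. The row lincYy1, the targeted RNA, measured 0.227 FPKM in siLinc-Yy1 and 0.360 FPKM in siNC. These are 11 fragments per kilobase in siLinc-Yy1 and 24 in siNC, and the ratio of 0.629 has a counting interval (exact binomial, 95%) of 0.282 to 1.35. The interval includes 1, so a fall was not resolved at this depth. It covers counting error only, over an assumed 1 kb of transcript, so it sets no limit on the size of a fall.

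Of the myoblast markers checked, all 7 were past a mean of 1 FPKM, among them Myod1 at 67.0 FPKM in siLinc-Yy1 and 62.5 FPKM in siNC. None of 6 endothelial markers reached it, the highest being Pecam1 at 0.169 FPKM in siLinc-Yy1 and 0.136 FPKM in siNC. Of 6 haematopoietic markers Cd68 alone did, at 4.43 FPKM in siLinc-Yy1 and 4.48 FPKM in siNC. Ptprc was at 0.0101 FPKM in siLinc-Yy1 and 0.0226 FPKM in siNC. Of 6 neural markers Tubb3 alone reached that mean, at 152 FPKM in siLinc-Yy1 and 117 FPKM in siNC, above Myod1. Genes of differentiated muscle went in both directions. Of 11 past a mean of 1 FPKM, 8 were higher and 3 lower in siLinc-Yy1, beside 54.6% of all such rows lower. The authors' deposited table called 4 of the 11, beside 1.45% of all such rows, with Ckm, Myh4 and Tcap higher and Myh3 lower. The 12 listed genes summed to 226 FPKM in siLinc-Yy1 and 178 FPKM in siNC, a ratio of 1.27. After rescaling to equal summed FPKM the ratio was 1.01. That rescaling put the median of all rows with a mean of at least 1 FPKM at -0.30 on the log2(FPKM + 1) scale. The part of differentiating cells in the values below was not tested, and in bulk RNA fewer cells of a type and less RNA per cell cannot be told apart.

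The receptors Notch1, Notch2 and Notch3, which carry the signal from the cell surface to the nucleus, were all well expressed. Notch3 (chromosome 17, 32257838 to 32303797, mm9) measured 30.9 FPKM in siLinc-Yy1 and 30.4 FPKM in siNC, a ratio of 1.02. Notch2 (chromosome 3, 97817461 to 97954290) measured 29.6 FPKM in siLinc-Yy1 and 28.1 FPKM in siNC, a ratio of 1.05. These were the only members above 1 at the authors' scaling, and after rescaling to equal summed FPKM they too were lower, at -0.24 (Notch2) and -0.29 (Notch3) on the log2(FPKM + 1) scale, where the median of all rows was -0.30. Both counting intervals over 1 kb of transcript include 1, at 0.949 to 1.09 for Notch3 and 0.982 to 1.13 for Notch2. Notch1 (chromosome 2, 26313422 to 26359342) was the lowest of the 3 receptors, with 14.2 FPKM in siLinc-Yy1 and 15.5 FPKM in siNC. Its ratio of 0.918 has a counting interval of 0.832 to 1.01. The receptors summed to 74.6 FPKM in siLinc-Yy1 and 73.9 FPKM in siNC, a ratio of 1.01. Notch3 made up 41.3% of this sum in siLinc-Yy1 and 41.1% in siNC, Notch2 39.6% in siLinc-Yy1 and 38.0% in siNC, and Notch1 19.0% in siLinc-Yy1 and 20.9% in siNC. The order of the receptors was the same in the pair of libraries, with Notch3 over Notch2 at 1.04 in siLinc-Yy1 and 1.08 in siNC.

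**Figure D1:**
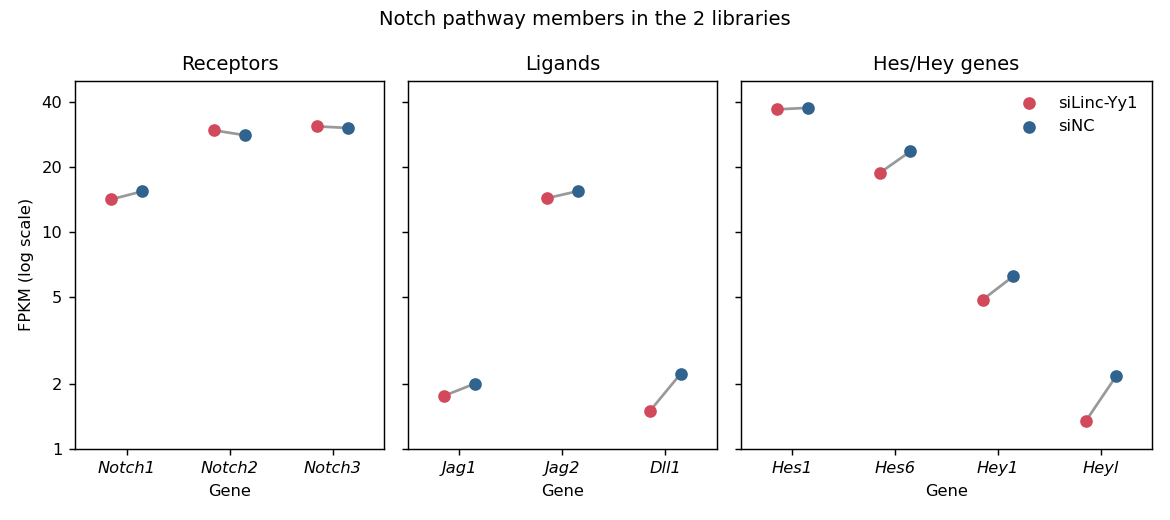
FPKM (log scale) of the 10 genes, by role, in siLinc-Yy1 (red, left) and siNC (blue, right), 1 library each, joined by a line. Notch2, Notch3 and Hes1 are level, while Dll1, Hes6, Hey1 and Heyl slope, with Heyl at 1.34 FPKM in siLinc-Yy1 and 2.18 FPKM in siNC.

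The ligands are membrane proteins presented by the neighbouring cell, and Jag2 dominated among those measured. Jag2 (chromosome 12, 114146801 to 114167706) measured 14.4 FPKM in siLinc-Yy1 and 15.5 FPKM in siNC, a ratio of 0.928 with a counting interval of 0.842 to 1.02. It made up 81.6% of the summed ligand level in siLinc-Yy1 and 78.6% in siNC. Jag1 (chromosome 2, 136907187 to 136942256), the ligand best known from vessels and the inner ear, measured 1.76 FPKM in siLinc-Yy1 and 2.00 FPKM in siNC. Its ratio of 0.878 has a counting interval of 0.664 to 1.17, so no difference was resolved over 1 kb of transcript. Over 2 kb the interval was 0.719 to 1.07, and it would narrow further over a longer transcript. Dll1 (chromosome 17, 15504318 to 15512787), a ligand known to keep muscle progenitors undifferentiated in the mouse embryo, measured 1.49 FPKM in siLinc-Yy1 and 2.22 FPKM in siNC. These levels stand for 71 fragments per kilobase in siLinc-Yy1 and 147 in siNC. The ratio of 0.672 has a counting interval of 0.498 to 0.896, and in the authors' deposited table the unadjusted p-value was 0.0130 and the q-value 0.296. Dll1 was below Jag1 in siLinc-Yy1 (Jag1 over Dll1 at 1.18) and above it in siNC (0.899). The 3 ligands summed to 17.6 FPKM in siLinc-Yy1 and 19.7 FPKM in siNC, a ratio of 0.894.

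Among the Hes/Hey genes the most abundant was level and the other 3 were lower. Hes1 (chromosome 16, 30065443 to 30067882), the classical Notch-induced repressor, measured 37.0 FPKM in siLinc-Yy1 and 37.6 FPKM in siNC. Its ratio of 0.984 has a counting interval of 0.925 to 1.05. It was the highest of the 10 genes in each library, above 78.5% of the rows past the filter (a mean of at least 1 FPKM) in siLinc-Yy1 and 80.0% in siNC. Hes6 (chromosome 1, 93308060 to 93309799), a divergent family member known to counteract Hes1 and to favour muscle differentiation, measured 18.8 FPKM in siLinc-Yy1 and 23.7 FPKM in siNC. The ratio was 0.794 and its counting interval 0.731 to 0.863.

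Hey1 and Heyl are Notch targets of satellite cells. Hey1 (chromosome 3, 8663359 to 8667038) measured 4.88 FPKM in siLinc-Yy1 and 6.28 FPKM in siNC, a ratio of 0.778 with a counting interval of 0.660 to 0.916. Heyl (chromosome 4, 122910799 to 122927113) measured 1.34 FPKM in siLinc-Yy1 and 2.18 FPKM in siNC, or 64 fragments per kilobase in siLinc-Yy1 and 144 in siNC. Its ratio of 0.615, with a counting interval of 0.452 to 0.834, was the lowest of the 10 genes. In the authors' deposited table Heyl had the smallest p-value of the members, 0.00170 unadjusted, with a q-value of 0.0855, so it was not called. The same table gave q-values of 0.682 for Hes6 and 0.707 for Hey1.

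Levels within this group spanned a wide range. Hes1 exceeded Heyl 27.7-fold in siLinc-Yy1 and 17.3-fold in siNC, and it exceeded Hes6 1.97-fold in siLinc-Yy1 and 1.59-fold in siNC. The 4 genes summed to 62.0 FPKM in siLinc-Yy1 and 69.7 FPKM in siNC, a ratio of 0.889. Hes1 made up 59.7% of the sum in siLinc-Yy1 and 53.9% in siNC, and Hes6 30.3% in siLinc-Yy1 and 34.0% in siNC.

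**Figure D2:**
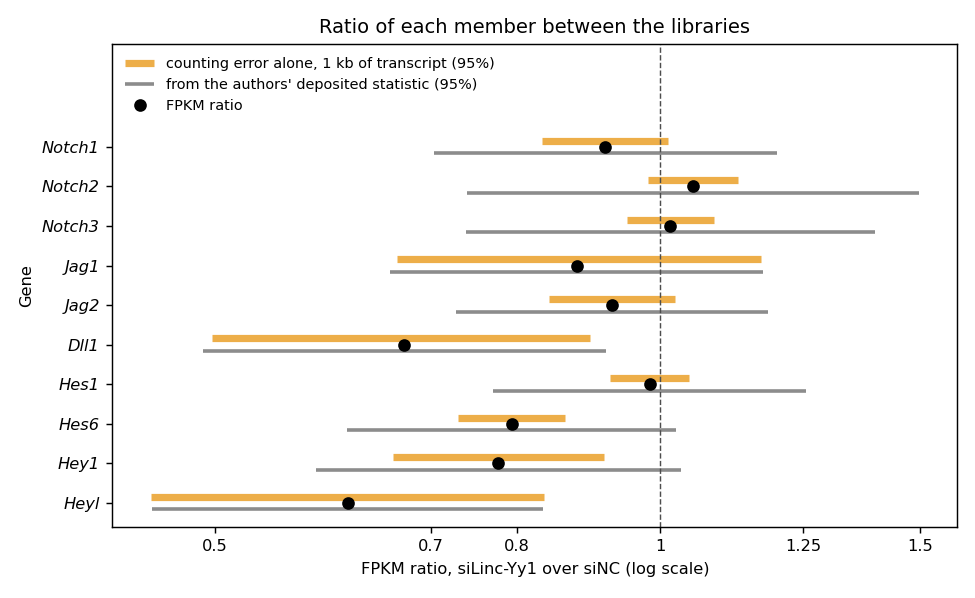
FPKM ratio of siLinc-Yy1 over siNC (log scale) for each gene, with the counting interval over 1 kb of transcript (orange) and the interval implied by the authors' deposited statistic (grey), both 95%. The orange bars of Dll1, Hes6, Hey1 and Heyl lie below 1, and the grey bars of Dll1 and Heyl do so.

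The precision of these ratios was set out in 2 ways. Counting error over 1 kb of transcript left 4 of 10 members wholly below a ratio of 1 and 0 above it, beside 19.2% of all rows past the filter below it and 23.9% above it. The labels name no molecular identifiers, and these intervals cover counting error only. They narrow with the transcript length assumed, and over 2 kb those of Notch1, Notch2 and Jag2 left out 1 too. The statistic in the authors' deposited table was read as a normal deviate, since the deposited p-values follow from it that way. It implies intervals of 0.454 to 0.833 for Heyl and 0.491 to 0.920 for Dll1, close to those of counting error over 1 kb. That closeness depends on the assumed length. Over 2 kb the counting intervals were narrower, at 0.495 to 0.760 for Heyl and 0.545 to 0.822 for Dll1. For Hes6 the deposited statistic implies 0.614 to 1.02 and for Hey1 0.585 to 1.03, which are wider than the counting intervals over 1 kb and include 1. In their test 2 of 10 members were lower at an unadjusted p below 0.05, beside 3.10% of all rows past the filter, and 0 of 10 were called, beside 1.45%.

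For counts of size the change was put on a log2 scale after 1 FPKM was added to each level (siLinc-Yy1 over siNC), a step that shrinks the changes of low genes. All 10 members had a mean of at least 1 FPKM, as did 11792 rows. Of the members 0 were at least 2-fold higher, beside 1.39% of these rows, and 0 were at least 2-fold lower, beside 0.178%. At 1.5-fold the count was again 0 in each direction, beside 3.28% of rows higher and 0.517% lower. On the plain FPKM ratio 1 member, Heyl, was at least 1.5-fold lower, beside 1.52% of rows. By any amount 8 of 10 members were lower, beside 54.6% of rows. The median over the members was -0.12, beside -0.02 over all rows past the filter.

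In these libraries low genes tended to be lower and abundant genes higher in siLinc-Yy1, so each member was also set beside the rows nearest to it in mean FPKM, in a window of fixed width along the ranks of level. For Heyl the change was -0.44, where its neighbours had a median of -0.09 and a central 95% from -0.48 to 0.37, and 4.32% of them were lower still. Hes6 stood at -0.32, where the central 95% of neighbours ran from -0.34 to 0.45 and 3.32% were lower. Hey1 stood at -0.31, where the central 95% of neighbours ran from -0.38 to 0.82 and 4.32% were lower. Dll1 stood at -0.37, where the central 95% of neighbours ran from -0.53 to 0.48 and 9.63% were lower. No member lay outside the central range of its neighbours. After subtraction of the neighbours' median, the values were -0.35 for Heyl, -0.31 for Hes6, -0.27 for Dll1 and -0.21 for Hey1. The other 6 members then lay between -0.07 (Hes1) and 0.06 (Notch2), with Notch3 at -0.0045.

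**Figure D3:**
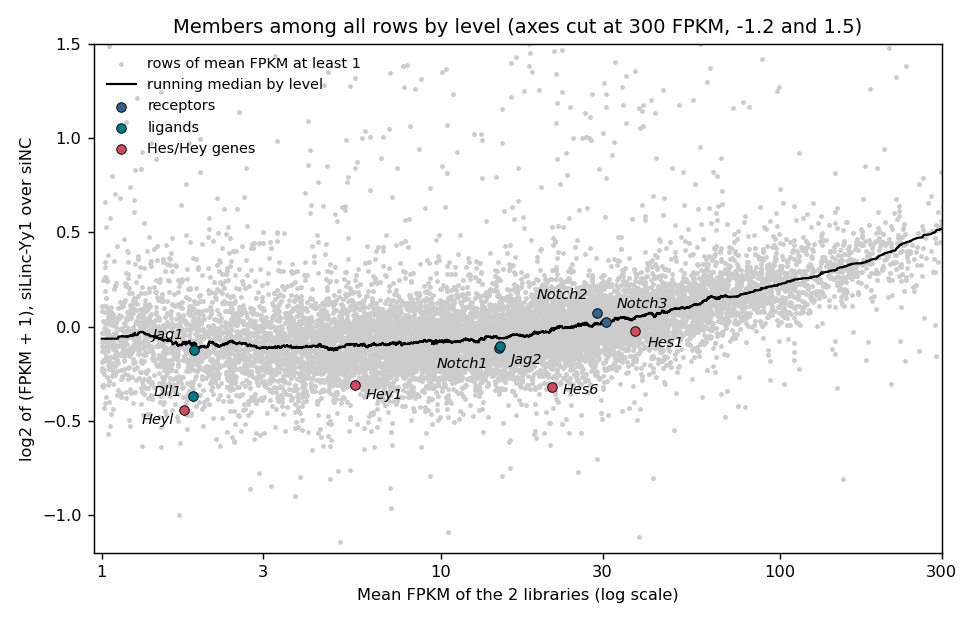
Change on the log2(FPKM + 1) scale, siLinc-Yy1 over siNC, against the mean FPKM of the 2 libraries (log scale), with all rows past the filter in grey and their running median as a line. Heyl, Dll1, Hey1 and Hes6 lie below the line inside the grey cloud, from -0.44 to -0.31, and the other 6 lie near the line, Notch1 and Jag2 on top of each other.

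Other genes of the pathway were followed in lists by role, 69 genes in all, of which 55 had a mean of at least 1 FPKM. Of these 27 were higher and 28 lower, with a median of -0.0049. At least 1.5-fold higher were 3 (Dlk1, Aes and Myc), beside 3.28% of all rows, and at least 1.5-fold lower were 0. Dlk1 passed the mean of 1 FPKM only through its level in siLinc-Yy1, so its place in this count was set by the filter.

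The largest change was among ligands outside the canonical set. Dlk1, an imprinted relative of Delta that lacks the domain for activating Notch, measured 1.96 FPKM in siLinc-Yy1 and 0.658 FPKM in siNC. The ratio of 2.97 has a counting interval of 2.07 to 4.42, and the q-value in the authors' deposited table was 1.8e-07. Dner, a transmembrane protein with Delta-like repeats known from neurons, measured 0.315 FPKM in siLinc-Yy1 and 0.0513 FPKM in siNC. These are 15 fragments per kilobase in siLinc-Yy1 and 3 in siNC. Its ratio of 6.15 has a counting interval of 1.96 to 37.4, and the deposited q-value was 7.9e-05. Of the 69 genes 62 had status OK, and of these the authors' deposited table called 2, Dlk1 and Dner, beside 1.62% of all 14366 rows with status OK. Dner did not reach a mean of 1 FPKM. Nor did Dlk2 and Dll3, which were lower in siLinc-Yy1 and not called. Dlk2 measured 0.674 FPKM in siLinc-Yy1 and 0.788 FPKM in siNC, and Dll3 0.307 FPKM in siLinc-Yy1 and 0.352 FPKM in siNC. The canonical receptor Notch4 and ligand Dll4 were near absent, with Notch4 at 0.0840 FPKM in siLinc-Yy1 and 0.0767 FPKM in siNC, and Dll4 at 0.0063 FPKM in siLinc-Yy1 and 0.0225 FPKM in siNC.

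**Figure D4:**
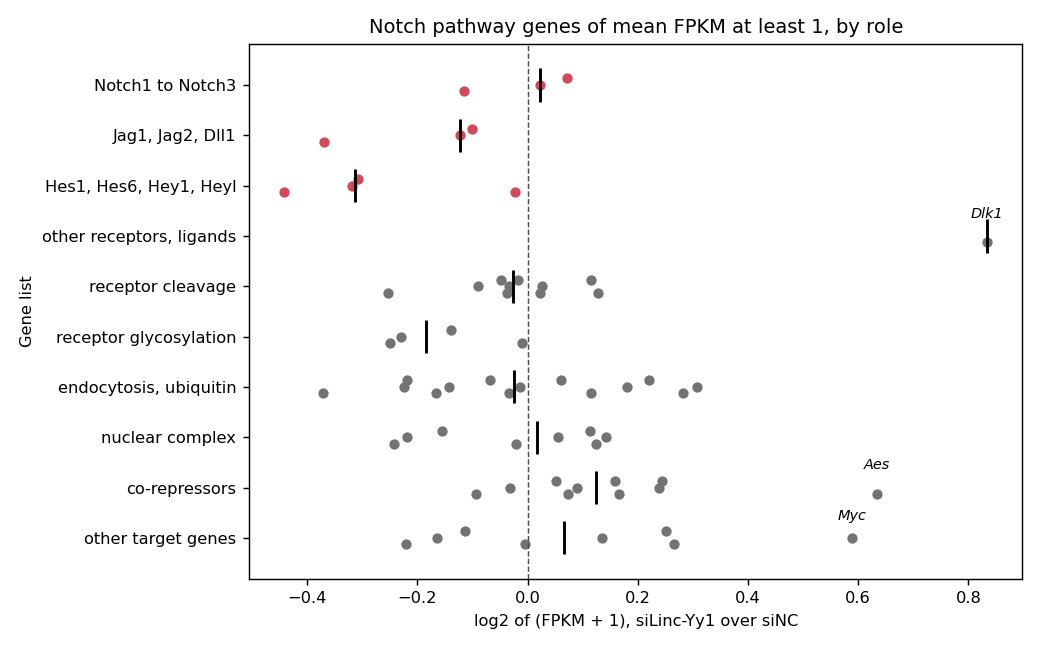
Change on the log2(FPKM + 1) scale, siLinc-Yy1 over siNC, of each pathway gene with a mean of at least 1 FPKM, by list, with the 10 genes in red, the others in grey and the median of each list as a bar. The Hes/Hey genes have a median of -0.31, the cleavage and nuclear complex lists lie around 0, and Dlk1, Aes and Myc stand to the right.

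Of the genes that cut the receptor, all 10 were past the filter, with 4 higher, 6 lower and a median of -0.03. Psenen, a subunit of gamma-secretase, measured 66.0 FPKM in siLinc-Yy1 and 67.6 FPKM in siNC. Aph1b, another subunit, measured 2.85 FPKM in siLinc-Yy1 and 3.59 FPKM in siNC. The 4 measured glycosyltransferases, which add sugars to the receptor and tune its choice of ligand, were all lower, with a median of -0.18. Of all rows past the filter 54.6% were lower. After the median of neighbours in level was subtracted, the 4 genes stood from -0.17 (Poglut1) to 0.01 (Rfng). Lfng, lunatic fringe, measured 10.00 FPKM in siLinc-Yy1 and 12.1 FPKM in siNC, while Rfng measured 20.3 FPKM in siLinc-Yy1 and 20.5 FPKM in siNC. Of 14 measured genes of endocytosis and ubiquitin transfer 6 were higher and 8 lower, with a median of -0.02. Epn1, an endocytic adaptor, measured 54.0 FPKM in siLinc-Yy1 and 47.5 FPKM in siNC. Dtx3l, a ubiquitin ligase of the Deltex family, measured 6.86 FPKM in siLinc-Yy1 and 9.17 FPKM in siNC.

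In the nuclear complex 4 of 8 genes were higher and 4 lower, with a median of 0.02. Snw1, a coregulator, measured 63.2 FPKM in siLinc-Yy1 and 57.2 FPKM in siNC, and Kat2b, an acetyltransferase, 8.38 FPKM in siLinc-Yy1 and 10.1 FPKM in siNC. Of 10 measured co-repressors 8 were higher and 2 lower, with a median of 0.12, beside 54.6% of all rows past the filter lower. Aes, a short Groucho family protein, measured 486 FPKM in siLinc-Yy1 and 313 FPKM in siNC. Its change of 0.63 was 0.06 after the median of its neighbours in level was subtracted.

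Of 8 measured genes listed as targets outside the 10 genes, 4 were higher and 4 lower, with a median of 0.07. Myc, a growth factor-responsive transcription factor, measured 48.3 FPKM in siLinc-Yy1 and 31.8 FPKM in siNC, with a q-value of 0.0521 in the authors' deposited table. Ccnd1, cyclin D1, measured 142 FPKM in siLinc-Yy1 and 119 FPKM in siNC. Hes5 was listed at 0 in each library, and Hey2 at 0.0432 FPKM in siLinc-Yy1 and 0.0434 FPKM in siNC, so Hes1, Hes6, Hey1 and Heyl were the only genes of the Hes and Hey families on the lists with a mean of at least 1 FPKM.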

How the data were processed

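RNA-seq of 2 C2C12 libraries, siLinc-Yy1 and siNC, came in 1 Cuffdiff gene table (2 identical copies, 1 read). Per the file headers, the authors gave 1 FPKM value per gene and library. The log2 fold change, test statistic, p-value and q-value columns are the authors' own, per the file headers; the statistic's sign is opposite to the fold change. Named in the submitters' processing notes are the build mm9 and TopHat2 2.0.4, Cuffdiff 2.0.4 and Cufflinks 2.1.1. Annotation, strand use and scaling between libraries were not stated, so reads of antisense genes cannot be told apart. No member overlaps another row. Starts in the table count from 0 and are printed counting from 1.

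FPKM columns were read in Cuffdiff's order, siNC as the first condition. Changes used a pseudocount of 1 FPKM and rows of mean FPKM of at least 1. Fragments per kilobase are FPKM times the depth in M. Depth came from a line fitted to 1-fragment rows (163 in siLinc-Yy1, 256 in siNC); 49.2% and 58.0% of receptor rows were whole within 0.02 fragments, so no count test was run. Counting intervals (Clopper-Pearson, 95%) assume 1 kb of transcript, since no coding lengths were at hand. Intervals from the deposited statistic divide the deposited change by it.

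The members and lists were chosen with earlier results of these data known. Named pathway genes were those changed at least 1.5-fold or called, and in each list the most abundant and the most changed. Notch4, Dll3, Dll4, Dlk2, Poglut1, Hes5, Hey2 and the markers named were chosen after their values were seen. Python 3.11.15, scipy 1.17.1 and pandas 2.3.3 were used, and the size rule was tested on simulated data.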

Additional observations from a re-analysis of the deposited data

How the results depend on the processing

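With a pseudocount added, no member passed 2-fold in either direction under any alternative. These were pseudocounts of 0.1 and 5 FPKM, equal summed FPKM, centring on the median, subtraction of the running median by level, no filter, a mean of at least 5 FPKM and status OK alone. None passed 1.5-fold at the main settings. A pseudocount shrinks the changes of low genes such as Heyl, and plain ratios of single members were not counted under the rescaling. Rescaling to equal summed FPKM moved the median of all rows by -0.28. Under it the median of the members was -0.41 and that of the other pathway genes -0.29, 1 pathway gene was at least 1.5-fold higher and 1 lower, and the summed ratios were 0.807 for receptors, 0.715 for ligands and 0.711 for Hes/Hey genes. Notch2 then stood at -0.24 and Notch3 at -0.29, or 0.07 and 0.02 above the median of all rows. Hes6 and Heyl then each stood at -0.62, past 1.5-fold lower, where the median of all rows was -0.30. The share of all rows past 1.5-fold was not counted under this rescaling. With the running median subtracted, Notch3 stood at -0.0045. The number of pathway genes at least 1.5-fold higher, 3 at the main settings, was 1 with a pseudocount of 5 FPKM and 1 with the running median subtracted. At a mean of at least 5 FPKM, 5 of 7 members were lower, as 3 members no longer passed. Over 2 kb of transcript, an alternative added after the data were seen, the counting intervals of 7 members left out a ratio of 1 instead of 4, adding Notch1, Jag2 and Notch2. Intervals from coding lengths were not run. No paired analysis was possible because each condition has 1 library. Depth limits Heyl, Dll1 and Jag1 most, at 64 to 147 fragments per kilobase.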

Other observations

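Dlk1 lies on chromosome 12 from 110691033 to 110701546 (mm9), 662 kb after the end of the lincYy1 row. Between them 5 rows had a mean of at least 1 FPKM, with changes from -0.24 to 0.28 on the log2(FPKM + 1) scale, and 0 of them changed 1.5-fold. This position was looked up after the values of Dlk1 were seen.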
